A study of Mus musculus with 20 samples.

Results

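Zinc-finger transcription factor genes form one of the largest gene families of the mouse, and they are described here in C2C12 myotubes exposed to hydrogen peroxide. The members were chosen by gene symbol: every probe set of the array whose only symbol begins with Zfp, Zbtb, Zkscan or Zscan and a number, without Zfp36, Zfp36l1 and Zfp36l2, which bind RNA. They were then selected on their measured signal, and a probe set was kept where it reached the 40th percentile of its array on at least 4 of the 20 arrays. Of 301 probe sets of 205 genes with such symbols, 193 probe sets of 142 genes were kept, out of 14379 probe sets tested in all. The other 108 probe sets were left out, and 63 genes had no probe set past the filter. Because the signals chose the members, being detected in these cells is no result about them.

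C2C12 is a clonal line of mouse myoblasts that fuse into multinucleated myotubes in low serum, so the series holds a single cell line in culture. After 96 h of differentiation the myotubes received H2O2 for 2 h in medium with 0.5% horse serum. There were 5 groups of 4 samples, untreated (0 µM) and with 1, 10, 100 or 1000 µM H2O2, each sample on 1 Affymetrix Mouse Genome 430A array. Nothing in the labels says that the 4 samples of a dose came from separate cultures, so the p-values speak of the spread between these arrays alone, and that spread may be technical.

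C2H2 zinc fingers are short loops held by a zinc ion, and arrays of them read DNA sequence. Many Zfp proteins of mice also carry a KRAB domain, which recruits TRIM28 and with it SETDB1 and HP1 proteins, and silences transposable elements and genes nearby. Zbtb proteins carry a BTB domain that pairs proteins and binds corepressors such as the NCoR complexes, and the SCAN domain of Zscan and Zkscan proteins also serves pairing. A symbol does not prove a DNA-binding role: Zfp106 and Zfp385a bind RNA, and Zbtb11os1 is a transcript from the strand opposite a member of the family. All 193 probe sets carry the same symbol in RefSeq as in the platform annotation.

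RefSeq promoters, 250 bases before to 50 after the start on assembly GRCm38.p6, were found for 114 of the 142 genes and for 38 of the 44 whose main probe set fell at 1000 µM. The 4 sequences printed here are written on each gene's own strand. They are shown because Zfp386 had the smallest p-value among the members, Zfp292 holds several of the motifs searched, Zfp955a shares its promoter letters with a neighbour that also fell, and Zbtb2 was the one gene that rose. Capitals mark motif matches.
Zfp386, chr12:116047474-116047773, plus strand: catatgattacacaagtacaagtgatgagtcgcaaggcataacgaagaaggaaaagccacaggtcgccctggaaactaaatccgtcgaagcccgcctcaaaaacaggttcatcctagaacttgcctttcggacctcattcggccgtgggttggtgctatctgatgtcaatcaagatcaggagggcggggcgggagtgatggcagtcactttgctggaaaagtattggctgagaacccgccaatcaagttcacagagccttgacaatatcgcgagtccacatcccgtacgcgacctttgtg
Zfp292, chr4:34882899-34883198, minus strand: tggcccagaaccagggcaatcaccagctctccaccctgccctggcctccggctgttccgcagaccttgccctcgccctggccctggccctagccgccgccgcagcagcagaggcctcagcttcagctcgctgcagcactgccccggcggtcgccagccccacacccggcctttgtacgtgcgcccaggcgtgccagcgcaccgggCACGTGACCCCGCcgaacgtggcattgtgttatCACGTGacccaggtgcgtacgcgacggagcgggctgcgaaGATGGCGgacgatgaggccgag
Zfp955a, chr17:33255096-33255395, minus strand: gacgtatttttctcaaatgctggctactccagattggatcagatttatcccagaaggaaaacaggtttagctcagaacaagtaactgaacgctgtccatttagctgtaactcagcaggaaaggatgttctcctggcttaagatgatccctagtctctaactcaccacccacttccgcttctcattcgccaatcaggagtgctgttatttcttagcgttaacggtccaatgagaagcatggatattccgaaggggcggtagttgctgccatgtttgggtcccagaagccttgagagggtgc
Zbtb2, chr10:4388059-4388358, minus strand: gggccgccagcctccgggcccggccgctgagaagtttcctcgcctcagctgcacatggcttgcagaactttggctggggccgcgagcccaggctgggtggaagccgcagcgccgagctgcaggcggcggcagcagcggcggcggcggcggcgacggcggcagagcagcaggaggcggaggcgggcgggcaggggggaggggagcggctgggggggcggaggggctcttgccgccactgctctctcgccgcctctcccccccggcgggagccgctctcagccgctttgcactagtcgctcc
The Zfp955a letters equal those of Zfp955b (chr17:33289294-33289593, plus strand) at 300 of 300 positions. The GC content was 51.0% for Zfp386, 70.3% for Zfp292, 47.0% for Zfp955a and 76.3% for Zbtb2.

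Each motif was searched on both strands as its letters alone. The core of the antioxidant response element, TGACNNNGC, was in promoters of 7.89% of fallen genes and of 15.8% of all 114 genes. It was in promoters of 14.0% of all 27025 genes with RefSeq promoters, tested or not, which are the background of each motif. The AP-1 motif TGANTCA was in 5.26% of the fallen genes' promoters and 7.02% of the members', against 8.97% of all. The E-box CACGTG, read by MYC, MAX and USF, was in 10.5% of the fallen genes' promoters and 8.77% of the members', against 8.09% of all, and the YY1 core GATGGCG in 5.26% of both, against 4.04% of all. TGATGNAAT, a composite site of ATF4 and CEBP factors, was in 0 of the members' promoters and in 1.08% of all. In the Zfp292 promoter the antioxidant core overlaps the first E-box. The median GC content was 56.8% for fallen genes and 58.5% for the members, against 61.3% for all tested genes. The median number of CpG was 17.0 and 17.2, against 21.0. For the 27025 genes behind the motif shares these medians were lower, 52.8% and 7.0. These matches are a description, and no test was made of them.

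Across the series, the arrays had been scaled to a common trimmed mean, so every change is relative to the rest of the array, and correlations between arrays over tested probe sets lay between 0.9335 and 0.9902. Deviations from the group means correlated at 0.462 to 0.514 between replicate 1 arrays, numbered at 0, 1, 100 and 1000 µM. They correlated at 0.01 to 0.261 between arrays of the same number from 2 to 4, over all 5 groups. Between arrays of different numbers the range was -0.388 to 0.325. Counts without replicate 1 are given beside the results. Of 12 myotube markers 1 rose at 1000 µM (Tnnt3), and their summed signal was 92660 to 99180 at 1000 µM and 73390 to 87080 in untreated cells. Of 7 tested markers of cycling undifferentiated cells, Mki67 and Aspm fell, with summed signals of 7176 to 7898 at 1000 µM and 7100 to 8557 in untreated cells. With the replicate number as a block, the myotube markers Ttn (limma adjusted p = 0.00187) and Mylpf (0.0335) and the cycling marker Cdk1 (0.0407) also rose at 1000 µM. Without the replicate 1 arrays Ttn rose (adjusted p = 0.000115) and the myotube marker Myh8 fell (0.0308). Of the markers of reserve cells, fibroblasts and leukocytes, 2, 5 and 2 were tested and 0 were called. Pax7 and Pax3 of reserve cells, and all markers of adipocytes and endothelium on the array, were below the filter. The 3′ minus 5′ difference of the Gapdh controls, a gauge of RNA integrity on the log2 scale, was -0.31 to -0.29 at 1000 µM and -0.36 to -0.30 in untreated cells. That of the actin controls was 0.105 to 0.22 at 1000 µM and -0.112 to 0.187 in untreated cells, lowest on untreated replicate 1. The part of these markers and controls in the results was not tested. In such bulk samples, fewer cells of a type and less RNA per cell cannot be told apart.

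After 1000 µM H2O2, transcripts of the zinc-finger family were lower than in untreated myotubes. In limma's fit, 62 of the 193 probe sets fell and 1 rose at an adjusted p under 0.05, which is 32.1% and 0.518%. Among all 14379 tested probe sets, 8.48% fell and 2.46% rose. The median log2 difference was -0.39 for the zinc-finger probe sets and -0.07 for all tested, and 161 of the 193 lay below 0 (83.4%, against 61.0% of all tested). The quartiles of the family were -0.62 and -0.12, against -0.26 and 0.10 for all tested probe sets. Counted by gene, 50 of 142 had at least 1 probe set that fell. With each gene represented by its brightest tested probe set (by mean log2 signal), 44 fell and 1 rose.

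The shift was present on each array. Set against the mean of the untreated arrays, the family's median log2 signal was -0.401 to -0.295 on the 4 arrays at 1000 µM, while the median of all tested probe sets was -0.08 to -0.05 there. On the untreated arrays the family's median ran from -0.04 to 0.06. On 42.0% of the family's probe sets all 4 arrays at 1000 µM lay below all 4 untreated arrays, against 13.8% of all tested probe sets. Without the replicate 1 arrays 77 fell and 5 rose (39.9% fell), beside 1831 falls and 697 rises among all tested probe sets (12.7% fell). With the replicate number as a block 83 fell and 3 rose (43.0% fell), beside 2010 falls and 844 rises among all (14.0% fell).

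**Figure D1:**
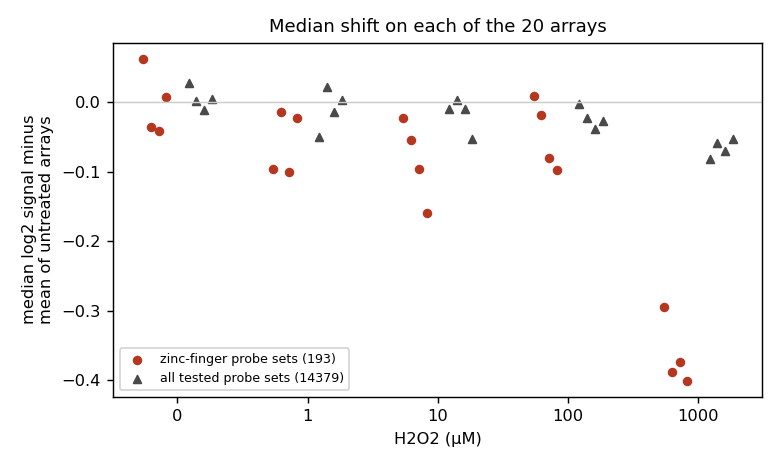
Median log2 signal of the 193 zinc-finger probe sets (circles) and of all 14379 tested probe sets (triangles) on each of the 20 arrays, minus the mean of the untreated arrays, by H2O2 dose. The 4 circles at 1000 µM lie between -0.401 and -0.295 and below every other circle, while the circles from 1 to 100 µM lie between -0.16 and 0.01.

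The size of the shift depended on how the arrays were scaled. When each array was centred on its median, 44 zinc-finger probe sets fell and 2 rose at 1000 µM, while the calls over all tested probe sets changed to 588 falls and 1155 rises, so that 66.3% of calls were rises, against 22.5% with the deposited scaling. That centring moved the median of all tested probe sets to 0.05 and left the family's median at -0.26. With quantile normalization 34 fell and 1 rose, against 477 falls and 294 rises over all tested probe sets. Over 16 refits of the model, those with other filters included, the share of zinc-finger probe sets that fell was 17.6% to 43.0%, beside 3.32% to 14.0% of all. The crossed rule of the design text, explained below, is not among these refits. It called 19 of the 193 zinc-finger probe sets and 262 of all 14379 tested, in either direction.

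**Figure D2:**
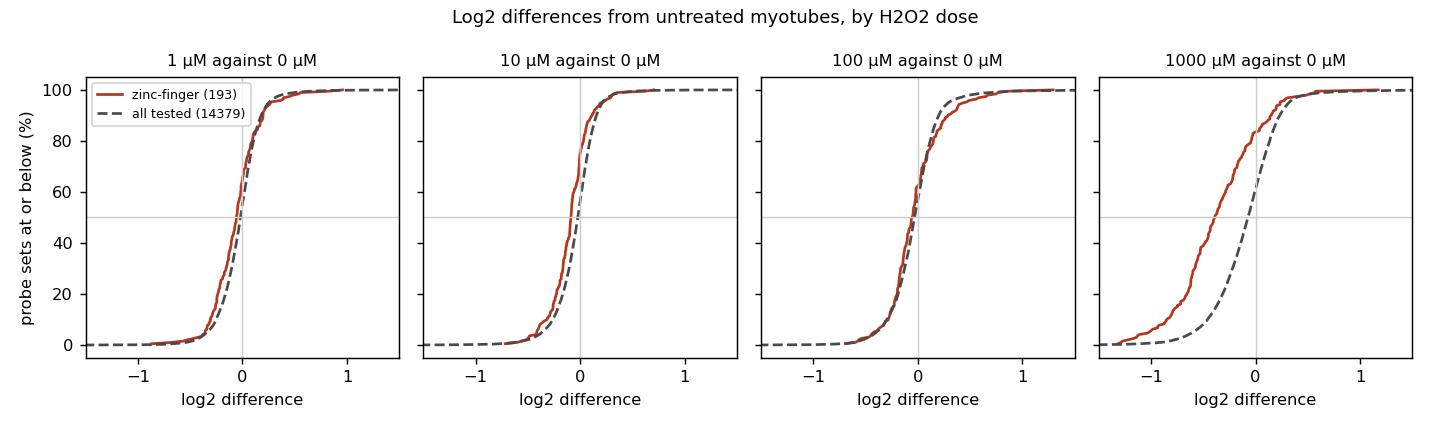
Cumulative share of probe sets (vertical, percent) at or below each log2 difference from untreated cells (horizontal), for the 193 zinc-finger probe sets (solid) and all 14379 tested (dashed), one panel per H2O2 dose. At 1000 µM the solid curve crosses 50% at -0.39 and the dashed curve at -0.07, and at 100 µM they cross at -0.05 and -0.03.

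The fall was not limited to dim probe sets. Of the 130 zinc-finger probe sets at or above the filter level on all 20 arrays, 47 fell and 1 rose (36.2% fell), against 1056 falls and 317 rises among the 11828 such probe sets of the array (8.93% fell). All tested probe sets were split by mean signal into 3 classes of 4793. In the lowest class 34 of 115 members fell (29.6%, against 8.6% of the class), in the middle class 25 of 65 (38.5%, against 12%), and in the highest 3 of 13 (23.1%, against 4.86%). The family's median difference in these classes was -0.43, -0.37 and -0.21, against -0.18, -0.12 and 0.05 for all. At 1000 µM 11 members were below the level on all 4 arrays, 7 of them called, and 2 were below it on all 4 untreated arrays; 0 passed the filter through 1 group alone. Just inside the filter, on 4 arrays, were Zfp109 and Zscan5b, and nearest outside it, on 3 arrays, were probe sets of Zfp64, Zfp688 and Zfp319.

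The largest fall among called main probe sets was that of Zfp574. Its signal was 109.2, 125.8, 115.7 and 117.2 on the arrays at 1000 µM, against 314.0, 265.9, 278.5 and 308.5 in untreated cells. The groups did not overlap, and the log2 difference was -1.32 ± 0.15 (SE, n = 4 arrays each; limma adjusted p = 7.02e-06). At 100 µM it read 234.0 to 285.5, within the range seen at 1 and 10 µM (173.3 to 300.1).

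Zfp386, whose promoter is printed above, had the smallest adjusted p of the family. Its signal was 179.3, 170.1, 214.2 and 214.9 at 1000 µM, against 443.2, 408.6, 405.0 and 438.0 in untreated cells, a log2 difference of -1.13 ± 0.10 (limma adjusted p = 5.31e-07). The highest value at 1000 µM was well below the lowest of any other dose, 343.2 at 100 µM. Zfp51 gave 67.9, 78.2, 62.0 and 72.5 at 1000 µM, against 187.3, 142.1, 141.5 and 160.0 in untreated cells, a difference of -1.16 ± 0.15 (adjusted p = 2.61e-05). The groups were again apart. Its values of 67.9, 62.0 and 72.5 at 1000 µM were under the lowest filter level of any array (77.7), so the size of this change is less exact.

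Zfp566 and Zfp113 also fell to signals under the filter level, which was 77.7 to 106 depending on the array, so the size of their changes is less exact. Zfp566 read 34.4, 53.2, 31.5 and 44.9 at 1000 µM, against 111.6, 79.3, 116.8 and 89.1 in untreated cells (log2 difference -1.29 ± 0.22, limma adjusted p = 0.000825). Zfp113 read 64.9, 51.0, 57.5 and 29.9 at 1000 µM, against 110.0, 115.9, 84.0 and 123.6 (-1.14 ± 0.25, adjusted p = 0.0069). Neither pair of groups overlapped.

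Zfp503, a repressor of the Noc and Nlz family with roles in limb and brain development, had lower values over the 2 highest doses on its main probe set. It read 475.2, 425.3, 410.4 and 491.4 in untreated cells, 230.0, 378.0, 312.6 and 306.1 at 100 µM, and 211.8, 235.3, 183.1 and 254.9 at 1000 µM. All arrays at 100 and 1000 µM lay below the untreated ones. The difference was called at 1000 µM (-1.03 ± 0.15, limma adjusted p = 9.28e-05). At 100 µM it was -0.57 ± 0.15 (adjusted p = 0.059, and 0.0202 with the replicate block). It was not called at 100 µM without the replicate 1 arrays. The second probe set of Zfp503 was not called at 100 µM in any setting. With the block, that probe set differed at 1000 µM by -0.855 ± 0.199 from untreated cells and by -0.745 ± 0.199 from 100 µM.

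Zfp292, a large zinc-finger protein, was lower on every array at 1000 µM, with 386.5, 278.7, 227.6 and 269.3, against 583.7, 565.3, 426.7 and 499.6 in untreated cells. The difference was -0.85 ± 0.13 (limma adjusted p = 0.000272). Zfp213 read 53.3, 112.9, 112.3 and 114.8 at 1000 µM, against 179.4, 180.8, 189.3 and 210.3 (-1.01 ± 0.19, adjusted p = 0.00163); its replicate 1 array was less bright than the other 3, all of which still lay below the untreated arrays. Zfp825 read 98.2, 79.9, 93.8 and 103.8, against 160.5, 202.3, 174.4 and 206.8 (-0.98 ± 0.16, adjusted p = 0.00054). The design of that probe set allows it to pick up related transcripts, so the gene it reports is uncertain.

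Zfp955a and Zfp955b lie close together on chromosome 17 with identical promoter letters, and the array's probes may not separate such copies fully. Zfp955a read 536.3, 473.7, 436.1 and 411.0 at 1000 µM, against 1023.3, 837.3, 802.9 and 885.5 in untreated cells (-0.94 ± 0.13, limma adjusted p = 9.97e-05). Zfp955b read 248.3, 164.6, 167.2 and 151.1, against 498.3, 286.7, 259.5 and 359.6 (-0.92 ± 0.25, adjusted p = 0.0212). Both pairs of groups were apart. The call of Zfp955b was lost with quantile normalization and when any of 5 single arrays was left out, with adjusted p up to 0.0774. Zfp553 read 57.2, 104.2, 74.2 and 70.5 at 1000 µM, against 150.0, 121.2, 136.9 and 140.4 (-0.87 ± 0.20, adjusted p = 0.00725), and it lost its call with quantile normalization (adjusted p = 0.066). Its values of 57.2, 74.2 and 70.5 were under the lowest filter level of any array (77.7), so the size of its change is less exact.

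Further tested probe sets of the same genes mostly fell too. That of Zfp574 differed by -0.80 ± 0.12 (limma adjusted p = 0.000167), that of Zfp386 by -0.94 ± 0.15 (adjusted p = 0.000385), that of Zfp825 by -1.22 ± 0.21 (adjusted p = 0.000817) and that of Zfp955b by -0.64 ± 0.11 (adjusted p = 0.000921). Of 3 further probe sets of Zfp292, 2 fell, by 1.11 and 0.61 on the log2 scale, and the other differed by -0.39 ± 0.16 (adjusted p = 0.119). The second probe set of Zfp503 differed by -0.85 ± 0.33 and was not called (adjusted p = 0.0993; 0.00627 with the replicate block).

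**Figure D3:**
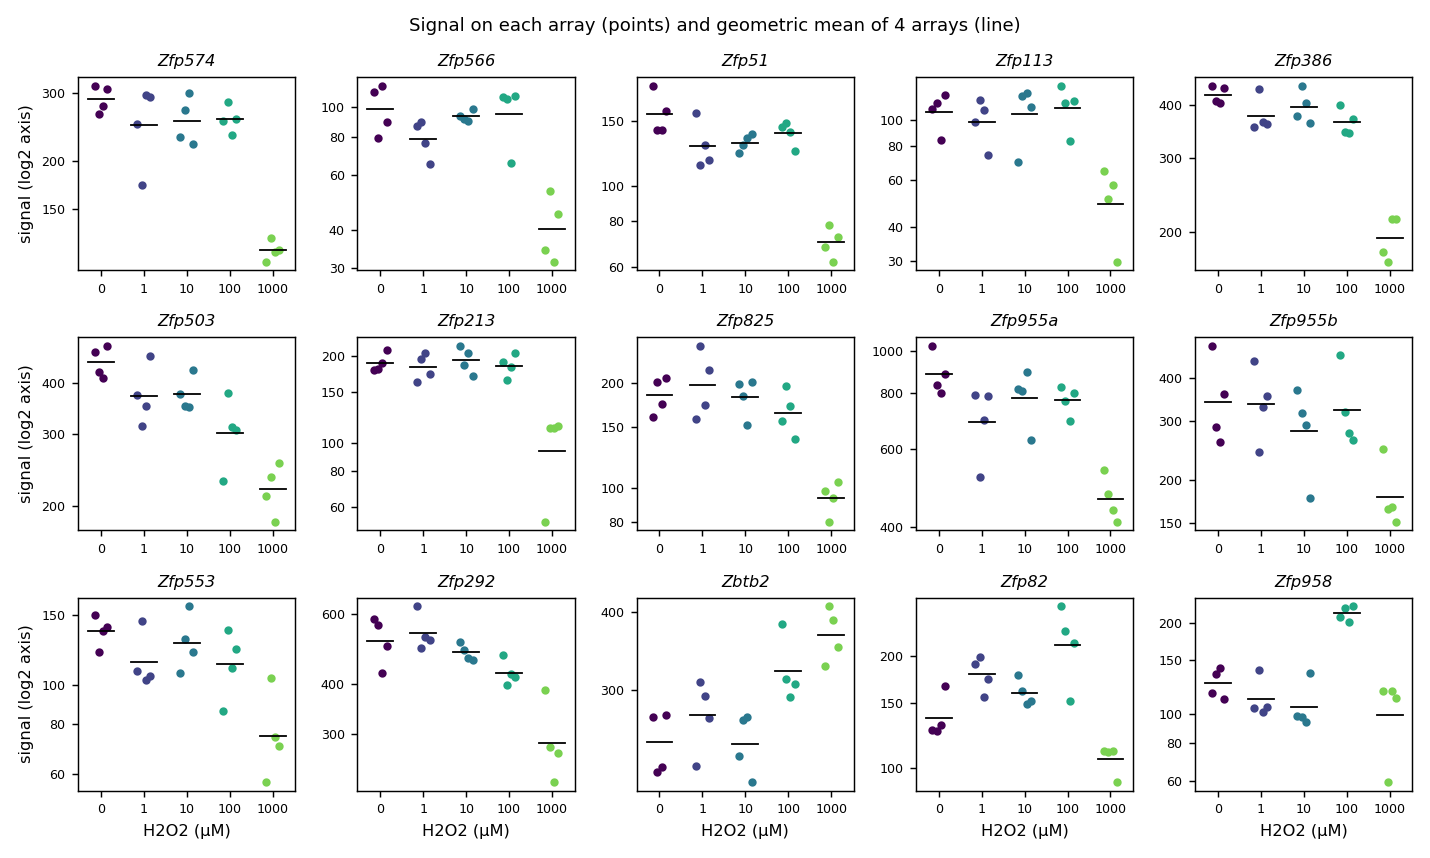
Signal of the 12 genes with the largest falls at 1000 µM among called main probe sets, and of Zbtb2, Zfp82 and Zfp958, on each array (points, vertical log2 axis) by H2O2 dose in µM, with the geometric mean of 4 arrays as a line. The 12 fallen genes drop at 1000 µM, Zbtb2 is highest there, and Zfp82 and Zfp958 have their highest means at 100 µM.

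Zbtb2, a BTB factor reported in human cells to repress the p53 pathway, was the one member that rose at 1000 µM. It read 272.4, 222.2, 226.4 and 274.3 in untreated cells, 382.2, 313.1, 292.8 and 307.4 at 100 µM, and 327.5, 408.5, 387.9 and 352.1 at 1000 µM. The untreated arrays lay below every array of the 2 highest doses, but the difference was called at 1000 µM only (0.57 ± 0.13, limma adjusted p = 0.00593) and was 0.38 ± 0.13 at 100 µM (adjusted p = 0.19). Zbtb21 had a larger difference that was not called (1.17 ± 0.43, adjusted p = 0.0845, and 0.0458 with the replicate block). Its replicate 1 array in untreated cells read 22.7 beside 125.2 to 216.4 on the other 3. Without the replicate 1 arrays the rise of Zbtb21 was smaller and was called (0.65 ± 0.18, limma adjusted p = 0.0203).

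By symbol prefix, 53 of 154 Zfp probe sets fell and 0 rose (34.4%, 113 genes, median difference -0.41). Of 25 Zbtb probe sets 7 fell and 1 rose (28.0% fell, 19 genes, median -0.33), and of 14 Zscan and Zkscan probe sets 2 fell (14.3%, 10 genes, median -0.20). With the replicate block 68 Zfp, 11 Zbtb and 4 Zscan and Zkscan probe sets fell, and 1, 2 and 0 rose. Without the replicate 1 arrays 69, 7 and 1 fell, and 3, 2 and 0 rose. The differences between these classes were not tested.

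**Figure D4:**
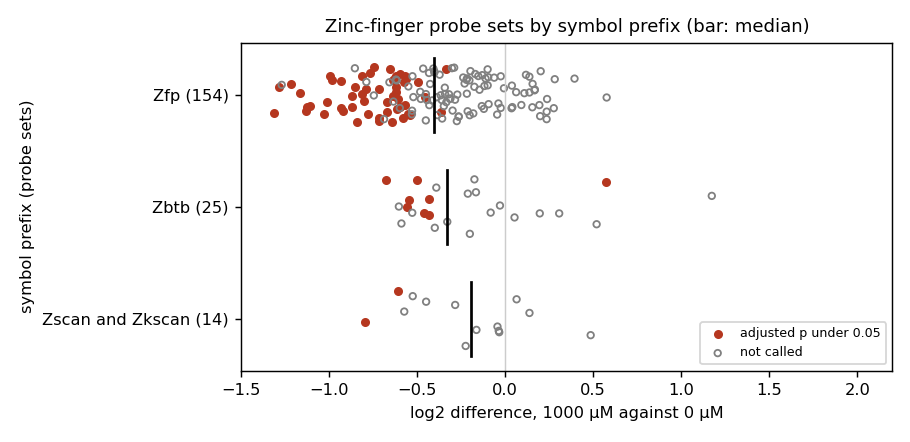
Log2 difference at 1000 µM against untreated cells (horizontal) for each zinc-finger probe set, by symbol prefix. Filled points have a limma adjusted p under 0.05, open points do not, the bar is the median (-0.41, -0.33 and -0.20 from top to bottom), and 1 filled point lies above 0.

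BTB factors with known roles showed smaller differences. Zbtb20, a repressor of the fetal liver gene Afp, read 398.9, 372.2, 288.2 and 341.9 at 1000 µM, against 468.2, 470.7, 438.6 and 505.1 in untreated cells (-0.43 ± 0.12, limma adjusted p = 0.0283). Zbtb7b, which directs T cells to the helper lineage, read 249.4, 296.9, 269.6 and 287.0, against 403.0, 418.1, 508.2 and 440.1 (-0.68 ± 0.20, adjusted p = 0.0346). Neither pair of groups overlapped, and both calls of these main probe sets were lost in several settings. Zbtb20 lost its call with median centring (adjusted p = 0.0934), quantile normalization (0.152) and when any of 5 single arrays was left out. Zbtb7b lost its call with both scalings (0.0671 and 0.127), without the filter and without any single array. The other probe sets of Zbtb20 differed by -0.50 ± 0.11 (limma adjusted p = 0.00717) and -0.61 ± 0.26 (0.137, and 0.0176 with the replicate block). That of Zbtb7b differed by -0.53 ± 0.24 (0.172).

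The other BTB factors chosen for their roles were not called without the replicate block. Zbtb18, a repressor needed for muscle differentiation in mice, read 1920.8 to 2459.1 at 1000 µM and 2151.4 to 3058.9 in untreated cells (-0.21 ± 0.15, limma adjusted p = 0.39; 0.0288 with the block). Zbtb17, the MYC partner also known as MIZ-1, differed by -0.40 ± 0.15 (adjusted p = 0.099; 0.0392 with the block). Zbtb7a differed by 0.20 ± 0.26 and Zbtb16, or PLZF, by -0.08 ± 0.32, with overlapping groups, and the sign of both turned in other settings. Zbtb4, Zbtb5 and Zbtb38 had no probe set under those symbols.

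Among Zfp genes chosen for their roles, none had a called main probe set in the fit without the replicate block. Zfp57, which keeps imprints methylated, read 75 to 114.8 at 1000 µM and 17.1 to 106.3 in untreated cells (0.58 ± 0.45, limma adjusted p = 0.457). Zfp746, or PARIS, a repressor of the PGC-1alpha gene, read 36.5 to 143.6 against 69.8 to 267.9 (-0.79 ± 0.40, adjusted p = 0.212), and in both groups replicate 1 was far below the other 3. It was called with the block (adjusted p = 0.044) and without the replicate 1 arrays (-0.74 ± 0.12, adjusted p = 0.000397). Zfp148 differed by -0.23 ± 0.13 (adjusted p = 0.287), Zfp110, an interactor of the neurotrophin receptor, by -0.04 ± 0.16 (0.907), and Zfp385a by 0.14 ± 0.18 (0.68). Zfp423 and Zfp521 were on the array but under the filter, and Zfp143, Zfp238 and Zfp365 had no probe set under those symbols.

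Some genes gave different answers from different probe sets. Of 34 genes with several tested probe sets, 85 in all, 7 had every probe set fall, 13 had some fall, 14 had none and 0 had calls in opposite directions. Differences within a gene were tested in 51 pairs, a comparison added after the data were seen, and 1 passed after adjustment over all 5112 such pairs of the array, of which 43 passed. It was Zfp207, the spindle protein BuGZ. Its brightest probe set read 1921.6, 1810.9, 1801.1 and 1821.7 at 1000 µM, against 1596.9, 1870.0, 1890.7 and 1810.8 in untreated cells (0.04 ± 0.08). Its second probe set by signal read 666.5, 659.9, 603.7 and 519.5, against 1127.8, 929.5, 1009.7 and 1032.1 (-0.75 ± 0.15, limma adjusted p = 0.00233). The 2 changes differed by 0.79 ± 0.15 (adjusted p = 0.0128), and the third probe set of the gene differed by 0.11 ± 0.16.

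Zfp106, an RNA-binding protein needed in mouse muscle and motor neurons, had a similar split that was not called. Its brightest probe set differed by -0.06 ± 0.10, while the second by signal fell by 0.67 on the log2 scale (SE 0.15, limma adjusted p = 0.00754) and the third by 1.00 (SE 0.24, adjusted p = 0.0121). The brightest minus these was 0.61 (adjusted p = 0.127) and 0.93 ± 0.24 (adjusted p = 0.0801). Zfp281, a repressor of Nanog in stem cells, differed by -0.27 ± 0.09 (adjusted p = 0.0558; 0.0316 with the block) on its brightest probe set and by -0.84 ± 0.14 (adjusted p = 0.000457) on the other. For Zfp91, a ubiquitin ligase, 0 of 3 probe sets were called, and 1 with the block (-0.69 ± 0.23, adjusted p = 0.0425). Where along the transcript these probes lie was not analysed here.

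**Figure D5:**
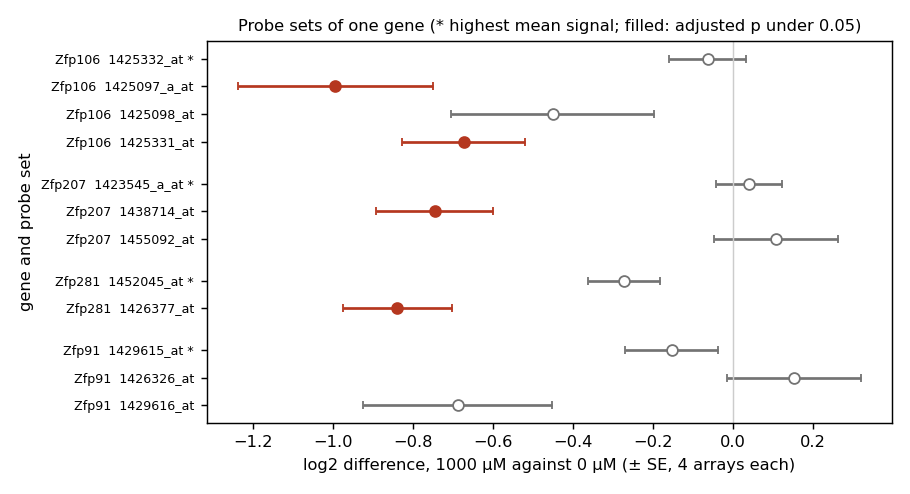
Log2 difference at 1000 µM against untreated cells (horizontal, point with SE of 4 arrays each) for every tested probe set of Zfp106, Zfp207, Zfp281 and Zfp91. Filled points have a limma adjusted p under 0.05; for Zfp207 the starred, brightest probe set lies at 0.04 and the second at -0.75.

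Zinc-finger genes often lie in clusters of copies. In RefSeq's gene order, 65 of 141 placed genes had another zinc-finger gene as a neighbour, and 20 of them fell (30.8%, median difference -0.45). Of the 76 with no such neighbour 24 fell and 1 rose (31.6% fell, median -0.22). Over both, 31.2% fell. The run with most tested genes held 5 on chromosome 7, Zfp84, Zfp790, Zfp568, Zfp82 and Zfp566. Their main probe sets differed by -0.62, -0.77, -0.62, -0.37 and -1.29, of which 3 were called (that of Zfp84 also with the block, adjusted p = 0.0144). The other probe set of Zfp84 was called without the block (-0.81 ± 0.20, limma adjusted p = 0.0113). On chromosome 17, Zfp51, Zfp53, Zfp52 and Zfp948 differed by -1.16, -0.64, -0.55 and 0.06, and of these main probe sets only that of Zfp51 was called (that of Zfp52 also with the block, adjusted p = 0.0162). Probes of such copies may share transcripts. Without the 20 probe sets designed against several transcripts, 59 fell and 1 rose.

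At 100 µM 0 of the 193 probe sets were called against untreated cells by limma, while 0.355% of all tested probe sets fell and 0.862% rose. The unadjusted p was under 0.05 for 24 of them (12.4%, against 11.2% of all tested), 14 lower and 10 higher, and the family's median difference was -0.05, against -0.03 for all. With the replicate block 3 were called: Zfp503 fell, Zfp82 rose (0.65 ± 0.16, adjusted p = 0.0289) and so did the opposite-strand transcript Zbtb11os1 (0.86 ± 0.20, adjusted p = 0.0202). The block gave 220 rises and 182 falls over all tested probe sets. Across the other alternatives 0 to 2 were called.

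At 10 µM 0 zinc-finger probe sets were called by limma, against 1 call over all tested probe sets (0.00695%). The unadjusted p was under 0.05 for 10 of the family, all lower (5.18%, against 4.99% of all tested). At 1 µM 0 were called, against 0.0% of all tested, and the unadjusted p was under 0.05 for 18 (9.33%, against 6.68% of all). The family's median difference was -0.06 at 1 µM and -0.09 at 10 µM, beside -0.02 at both doses for all tested probe sets. Without the replicate 1 arrays Zfp52 was called at 1 µM (-0.61 ± 0.12, adjusted p = 0.0248), beside 107 calls over all tested probe sets. A moderated F-test over all doses called 51 members (26.4%, against 8.01% of all tested).

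Set against 100 µM, the 1000 µM arrays again had lower zinc-finger signals. In limma's fit 43 probe sets fell and 1 rose (22.3% and 0.518%), against 3.6% and 0.744% of all tested probe sets, with a median difference of -0.30, against -0.04 for all. This comparison uses the same 1000 µM arrays as the one against untreated cells. The 3 largest falls among called main probe sets were Zfp566 (-1.24 ± 0.22), Zfp113 (-1.18 ± 0.25) and Zfp574 (-1.14 ± 0.15). Zfp746 differed by -1.28 ± 0.40 and was not called (adjusted p = 0.0712; 0.00519 with the replicate block). With the replicate block 63 fell and 1 rose (32.6% fell), beside 1059 falls and 331 rises among all tested probe sets (7.36% fell), and without the replicate 1 arrays 60 fell and 0 rose (31.1% fell), beside 984 and 318 (6.84% fell). Median centring gave 30 falls and 1 rise, with 272 falls and 199 rises over all tested probe sets, and quantile normalization 26 and 1, with 262 and 105; the deposited scaling gave 518 and 107.

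The next 3 called main probe sets, of Zfp958, Zfp87 and Zfp82, had another dose profile. Zfp958 read 116.8, 135.7, 142.2 and 111.9 in untreated cells, 209.4, 223.4, 200.6 and 226.3 at 100 µM, and 119.2, 59.7, 119.3 and 112.8 at 1000 µM. The arrays at 100 µM lay above all others of these groups, the fall at 1000 against 100 µM was called (-1.12 ± 0.20, limma adjusted p = 0.00206), and the difference at 100 µM against untreated cells was 0.77 ± 0.20 (adjusted p = 0.0692). Zfp82 read 126.4, 125.9, 130.3 and 166.6 in untreated cells, 272.4, 234.4, 151.6 and 217.4 at 100 µM, and 111.1, 110.2, 111.1 and 91.8 at 1000 µM. Here the lowest array at 100 µM lay below the highest untreated one, the fall against 100 µM was called (-1.02 ± 0.16, adjusted p = 0.000706), and the difference at 100 µM was 0.65 ± 0.16 (adjusted p = 0.0502). Zfp87 read 122.1, 103.7, 134.2 and 124.5 in untreated cells, 182.3, 194.3, 171.5 and 162.9 at 100 µM, and 93.7, 80.8, 70.1 and 92.3 at 1000 µM. Its 3 groups did not overlap, and only the fall against 100 µM was called (-1.08 ± 0.19, adjusted p = 0.00206; at 100 µM against untreated cells 0.56 ± 0.19, adjusted p = 0.222). Against untreated cells their differences at 1000 µM were -0.35, -0.53 and -0.37 for Zfp958, Zfp87 and Zfp82, and 0 were called. That of Zfp87 was called without the replicate 1 arrays (-0.58 ± 0.19, adjusted p = 0.0451).

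Zfp931 was the one probe set that rose at 1000 against 100 µM, with 472.7, 360.7, 314.5 and 409.6 at 1000 µM and 220.7, 274.1, 312.1 and 229.9 at 100 µM (0.58 ± 0.16, limma adjusted p = 0.0401). The nearest arrays differed by little, the untreated arrays read 301.7 to 408.5, and the call was lost without the filter, without the replicate 1 arrays and when any of 6 single arrays was left out.

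Partners of the KRAB domain were followed in a list of 23 genes, of which 18 were tested. At 1000 µM 3 fell, 0 rose and the median difference was -0.23, where 8.48% of all tested probe sets fell and their median was -0.07. These were Setdb1, the histone H3K9 methyltransferase recruited through TRIM28 (-0.44 ± 0.10, limma adjusted p = 0.00847), Cbx5, which encodes HP1alpha (-0.29 ± 0.08, adjusted p = 0.0234), and the chromatin remodeller Atrx (-0.76 ± 0.23, adjusted p = 0.0386). Trim28 itself differed by 0.01 ± 0.08. With the replicate block 7 of the 18 fell, beside 14.0% of all tested probe sets in that fit, and with quantile normalization 1. Atrx lost its call without the replicate 1 arrays (-0.47 ± 0.21, adjusted p = 0.134). Of 12 tested corepressors of BTB proteins 1 fell, the NCoR exchange factor Tbl1xr1 (-0.43 ± 0.08, adjusted p = 0.000862), a share near the 8.48% of all tested probe sets, and the median difference was -0.06, against -0.07 for all.

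C2H2 factors named outside the Zfp, Zbtb, Zkscan and Zscan series were followed in a list of 59 genes, of which 32 were tested. At 1000 µM 10 fell, 0 rose and the median difference was -0.37, where 8.48% of all tested probe sets fell and their median was -0.07. The larger falls included Snai2, a repressor of epithelial genes (-1.27 ± 0.30, limma adjusted p = 0.00951), Plagl2, an activator of the PLAG family (-1.07 ± 0.18, adjusted p = 0.000675), Patz1, itself a BTB zinc-finger protein (-0.89 ± 0.10, adjusted p = 9.06e-06), and Zfhx3, which also carries homeodomains (-0.86 ± 0.15, adjusted p = 0.000808). General factors of the class differed little, with Sp1 at -0.09 ± 0.09, Yy1 at 0.09 ± 0.11 and Ctcf, the insulator protein, at -0.06 ± 0.09, and none of these was called. At 100 µM 3 genes of the list fell, Patz1 (-0.49 ± 0.10, adjusted p = 0.0148), Zic1 and Zfhx3. In that fit 0 of the KRAB and BTB partner lists and 0.355% of all tested probe sets fell. Without the replicate 1 arrays Patz1 (adjusted p = 0.0614) and Zic1 (0.0901) lost these calls. Glis2 (0.0419), Rreb1 (0.0334) and Zfhx4 (0.016) were then called lower, beside 358 calls over all tested probe sets. So was Ehmt2 of the KRAB list (-0.27 ± 0.07, adjusted p = 0.0499, and 0.0392 with the replicate block).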

How the data were processed

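Messenger RNA was measured in 20 samples of C2C12 myotubes, 4 per H2O2 dose, grouped by the sample titles; 1 title at 10 µM gives no replicate number, and that array was called replicate 1 and paired with no other. The intensity values deposited by the authors are linear MAS5 signals per probe set, per the submitters' processing notes, and each array's 2% trimmed mean was 500.12 to 500.17. Remaining differences in trimmed mean were removed, signals were floored at 1, and log2 was taken; the deposited values were not on a log2 scale. Arrays give no read depth, and 4 arrays per dose limit the precision. Of 22690 probe sets, 64 controls were left out, and 14379 reached their array's 40th percentile on at least 4 arrays.

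One linear model over the 5 groups was fitted with limma 3.58.1 under R 4.3.3 (eBayes with an intensity trend), and p-values, all two-sided, were adjusted by Benjamini-Hochberg over all tested probe sets of a comparison; changes are called at 0.05 and given as log2 differences ± SE. The script was tested on simulated data. Gene symbols came from the platform annotation, checked against RefSeq (GRCm38.p6). A gene stands by its brightest tested probe set. Genes were named by a rule: up to 12 called rises and falls at 1000 and at 100 µM, 6 each way for 1000 against 100 µM, 5 each way at lower doses, those at the edge of the filter, and 24 genes for their known roles. Neighbours in gene clusters, Zbtb21, Zbtb11os1, Zfp52 and genes of the partner lists were named after their values were seen. Classes follow the symbol prefix, and proteins were not used here.

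The members and lists were chosen with earlier results of these data known. The correlation of deviations from the group means was over 0.1 in 33 of 36 same-numbered pairs (0.01 to 0.514). It was so in every such pair of the 0, 1, 100 and 1000 µM groups. But it was also over 0.1 in 52 of 108 pairs of different number (-0.388 to 0.325). Between different numbers from 2 to 4 it reached 0.325 (0 µM replicate 3, 10 µM replicate 4), above the same-number maximum of 0.261. The values set replicate 1 apart but do not show pairing by number among replicates 2 to 4. The numbers, taken from the titles, were treated as pairing arrays in the replicate block only. Alternatives were other scalings, floors and filters, no trend, the replicate block, replicates 2 to 4 only and leaving out each array. Others were the crossed comparison rule of the design text, and probe sets above the filter on all arrays, the latter chosen after seeing the data. The crossed rule was applied as the same direction in all 16 array pairs, with the groups' mean signals apart by more than 1.75 times.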

Additional observations from a re-analysis of the deposited data

Results flagged for a closer look

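In 16 of 160 groups of 4 arrays, for the 32 genes named by the rule, 1 array lay further from the other 3 than Dixon's 95% limit allows. Chance alone gives about 1 in 20 such groups.

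Of these, 8 were replicate 1 arrays. Zbtb18 read 3166.9 on replicate 1 at 100 µM beside 2300.3 to 2401.7, and 3018.6 at 10 µM beside 2096.9 to 2214.5. Zfp110 read 654.6 at 100 µM beside 356.0 to 387.4. Low replicate 1 arrays were those of Zfp213 at 1000 µM (53.3 beside 112.3 to 114.8), Zbtb7a at 1 µM (90.8 beside 143.9 to 149.6), Zfp57 in untreated cells (17.1 beside 100.1 to 106.3), and Zfp746 at 1000 µM (36.5 beside 142.5 to 143.6) and in untreated cells (69.8 beside 225.1 to 267.9). Without replicate 1, the difference of Zfp57 at 1000 µM was -0.08.

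The other arrays were of replicates 2 to 4. Zfp386 read 436.2 at 1 µM beside 354.8 to 365.0, and Zfp553 144.9 beside 103.2 to 108.8. Zfp566 read 65.7 at 100 µM beside 105.8 to 108.6. Zfp82 read 91.8 at 1000 µM beside 110.2 to 111.1, and 166.6 in untreated cells beside 125.9 to 130.3. Zfp958 read 59.7 at 1000 µM beside 112.8 to 119.3, 136.4 at 10 µM beside 94.2 to 98.3, and 139.3 at 1 µM beside 101.4 to 105.4.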

How the results depend on the processing

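For called genes among those named by the rule, directions never turned over the settings tried. Of 234 refits of the 15 such genes called at 1000 µM against untreated cells 209 kept the call. Of 200 refits of the 13 called against 100 µM 191 did. Most of the 15 were named for the size of their change. By main probe set 44 genes fell and 1 rose at 1000 µM, and 30 and 1 against 100 µM. The called genes not named were not followed singly. Why the remaining refits lost the call was not tested.

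Zinc-finger probe sets called at 1000 µM against untreated cells numbered 63, and 35 with quantile normalization, 31 with a 60th percentile filter (fewer tested) and 19 by the crossed rule; single arrays left out gave 46 to 54. At 1000 against 100 µM the 44 became 27, 22 and 15 in these settings and 31 to 38 without an array. At 100 µM the count was 0, and 1 with median centring, 2 with quantile normalization, 2 without the trend, 3 with the replicate block, 1 in replicates 2 to 4 and 0 to 1 without an array. At 1 µM it was 0, and 1 in replicates 2 to 4 and 1 by the crossed rule; without an array it stayed 0 there and at 10 µM. The F-test's 51 became 27 with the stricter filter and 82 in replicates 2 to 4. Calls that the block changed stand beside the named genes above.

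Over all tested probe sets, the 1574 calls at 1000 µM became 771 with quantile normalization, 2854 with the block, 2528 in replicates 2 to 4, 262 by the crossed rule and 990 to 1358 without an array. The 175 at 100 µM became 402, 358, 79 (block, replicates 2 to 4, crossed rule) and 116 to 172. The 625 at 1000 against 100 µM became 367, 1390, 1302, 166 (quantile, block, replicates 2 to 4, crossed rule) and 361 to 524. At 10 µM the 1 call became 0 with median centring, 2, 4 and 13 (block, replicates 2 to 4, crossed rule) and 0 to 1. At 1 µM the 0 became 107, 9 (replicates 2 to 4, crossed rule) and 0 to 1.

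The family's median minus that of all tested probe sets was -0.3165 at 1000 µM, -0.2434 with quantile normalization and -0.3385 to -0.2836 without an array. At 10 µM it was -0.065, -0.0233 with quantile normalization and -0.0811 to -0.0432 without an array. At 1 µM it was -0.0364, -0.0062 with quantile normalization, -0.0749 with the stricter filter and -0.0534 to -0.0278 without an array. Without an array it was -0.0494 to -0.0079 at 100 µM and -0.325 to -0.2332 at 1000 against 100 µM. The KRAB partner list's 3 falls became 1 with quantile normalization, 7 with the block, 5 in replicates 2 to 4 and 1 to 3 without an array; the other C2H2 list's 10 became 6 with the stricter filter and 7 to 10; the BTB list's stayed 1.

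Differences at 1000 µM of 6 uncalled genes turned sign. Zbtb16 moved to 0.043 with median centring, 0.092 with quantile normalization and 0.092 in replicates 2 to 4, and ran from -0.231 to 0.222 without an array. Zbtb7a moved to -0.076 in replicates 2 to 4. Zfp106 moved to 0.063 with median centring and ran from -0.109 to 0.035 without an array. Zfp110 moved to 0.087 with median centring and 0.091 with quantile normalization, and ran from -0.09 to 0.002. Zfp207 moved to -0.003 with quantile normalization and -0.036 in replicates 2 to 4, and ran from -0.015 to 0.067. Zfp57 moved to -0.076 in replicates 2 to 4 and ran from -0.072 to 0.806.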
